A study of Mus musculus with 9 samples.

Results

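The core of the canonical Wnt pathway was followed through 10 genes, Fzd7, Lrp5, Lrp6, Dvl3, Axin1, Apc, Gsk3b, Btrc, Ctnnb1 and Tcf7l2. They were chosen by symbol as the receptor, the co-receptors, the relay protein, the destruction complex, beta-catenin and a nuclear partner, and each symbol was matched to an Ensembl identifier in GENCODE M21. All 10 were found among the 28137 genes of the expression table. Expression was measured by RNA-seq in 9 libraries of RAW264.7, a mouse monocyte and macrophage line derived from a leukemia. The 3 groups of 3 libraries received control siRNA (NC), SFRP2 siRNA or RAB6A siRNA. SFRP2 is a secreted protein that binds Wnt ligands or Frizzled receptors, and RAB6A is a small GTPase of Golgi trafficking. According to the labels, all cells carried 60 nM siRNA for 6 h, rested for 12 h and then stayed in lipopolysaccharide (LPS) at 100 ng/ml for 24 h, so that all 3 groups share the LPS stimulus and no unstimulated group was analysed here. The study's methods describe another siRNA dose, medium and schedule and add interferon-gamma to the LPS, and the labels were followed. The labels do not say whether the libraries of a group came from separate cultures, or whether the 3 SFRP2 siRNA libraries received the same siRNA, so p-values measure the spread between libraries, which may be technical.

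In the canonical Wnt pathway, a Wnt ligand joins a Frizzled receptor to LRP5 or LRP6, and Dishevelled proteins then restrain a destruction complex. Without a ligand, this complex of AXIN, APC, GSK3 and casein kinase 1 marks beta-catenin by phosphorylation, and the ubiquitin ligase subunit beta-TrCP (encoded by Btrc and Fbxw11) passes it to the proteasome. Stable beta-catenin enters the nucleus, binds TCF/LEF factors and switches target genes such as Axin2. In macrophages, Wnt signaling is known for its part in inflammation and tissue repair. RNA levels do not measure the stability or the location of the beta-catenin protein, which were not analysed here.

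The unit of the deposited values is FPKM (fragments per kilobase of gene length, scaled to the number of mapped fragments), a scale on which genes can be compared per length. Read numbers recovered from FPKM summed to 40832074 to 46544869 per library in the NC group, 34296648 to 39935533 in the SFRP2 siRNA group and 32297214 to 37052593 in the RAB6A siRNA group. Sfrp2 was counted in 2 to 4 reads per library in all 3 groups, so a reduction by its siRNA was not detectable at this depth. The mean FPKM of Sfrp2 was 0.0213 in NC, 0.0401 with SFRP2 siRNA and 0.0482 with RAB6A siRNA (n = 3 each). In FPKM both siRNA groups lay above all NC libraries. In reads, every NC library had 2 and the SFRP2 siRNA libraries had 2 to 4, so those groups overlapped. Rab6a, the target of the other siRNA, had a mean FPKM of 25.7 ± 1.48 (SD, n = 3) in NC and of 20.7 ± 0.445 (n = 3) in RAB6A siRNA libraries. It fell by 0.31 on the log2 scale (SE 0.06, limma, adjusted p = 0.0024). In that comparison 73.3% of all genes tested changed more in either direction, and 36.5% were lower at an adjusted p under 0.05. All 9 of 9 macrophage markers were detected, with a summed FPKM of 4582 to 5050 in NC, 4054 to 4383 in SFRP2 siRNA and 3979 to 4142 in RAB6A siRNA libraries. Cd68 had the highest NC level of these markers, at 1850 ± 110 FPKM (n = 3). Of 9 markers of other cell types, 7 were in the table, with a summed FPKM of 1.55 to 2.36 over all libraries. The fibroblast marker Col1a1 had the highest NC level of them and was counted in 103 to 337 reads per library. Its FPKM was 0.64 ± 0.42 in NC, 0.93 ± 0.38 with SFRP2 siRNA and 0.54 ± 0.10 with RAB6A siRNA (n = 3 each). In every library 5 of the 7 stayed below an FPKM of 0.5, and the keratinocyte marker Krt14 was at or near 0.

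Beta-catenin was the core gene with the highest level. In NC libraries its gene Ctnnb1 had a mean FPKM of 48.7 ± 1.41 (n = 3), above 96.7% of all genes in the table. Axin1 followed at 14.7 ± 0.410, Lrp5 at 10.6 ± 0.685 and Dvl3 at 7.23 ± 0.0891, each below the gene before it in every NC library. Gsk3b (6.79 ± 0.412), Lrp6 (6.43 ± 0.209) and Apc (5.73 ± 0.513) came next, and the ranges of Gsk3b and Lrp6 overlapped, as did those of Lrp6 and Apc. Btrc was lower at 1.36 ± 0.0453. Fzd7 (0.439 ± 0.0788) and Tcf7l2 (0.358 ± 0.0333) were the lowest, with overlapping ranges.

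**Figure D1:**
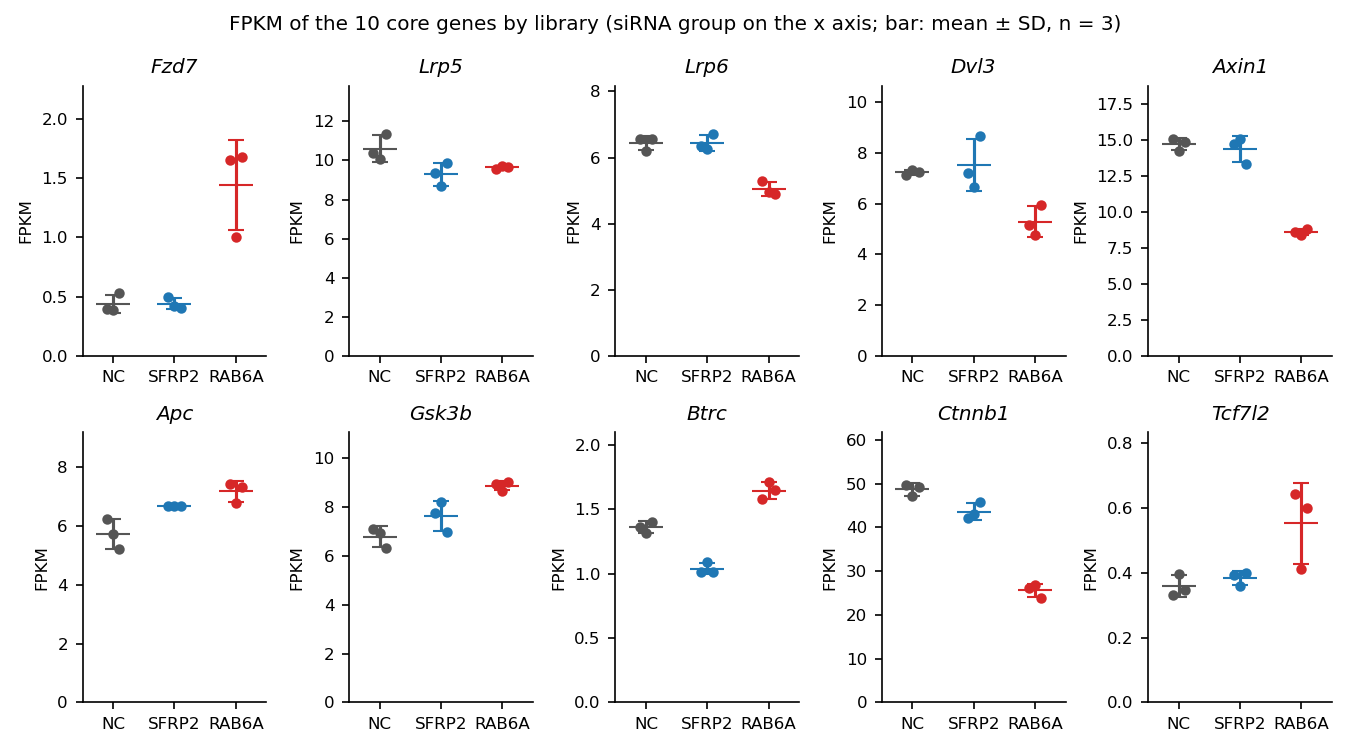
FPKM (y axis, each panel with its own scale from 0) of the 10 core genes in every library, by siRNA group (x axis), with points for libraries and bars for the mean ± SD of 3 libraries. The RAB6A siRNA points of Ctnnb1 (23.9 to 26.8) and Axin1 (8.41 to 8.80) lie far below the NC points, and those of Fzd7 (1.00 to 1.68) lie above them.

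Against NC, more genes passed the test with RAB6A siRNA than with SFRP2 siRNA. With RAB6A siRNA, 7 of 9 core genes tested passed an adjusted p of 0.05 (limma with Benjamini-Hochberg adjustment), where 74.1% of all 12712 genes tested did. Ctnnb1, Axin1, Dvl3 and Lrp6 were lower (36.5% of all genes), and Fzd7, Gsk3b and Apc were higher (37.6% of all genes). Fzd7 reached the mean FPKM of 0.5 required for the test through the RAB6A siRNA libraries alone. With SFRP2 siRNA, limma called 0 of 8 core genes tested and 0 of 12017 genes in all (0%), whereas voom on recovered reads called 0 core genes and 42 genes in all. At an unadjusted p under 0.05, 4 of 8 core genes and 18.5% of all genes passed in that comparison. The median log2 fold change of the core genes tested was -0.13 with RAB6A siRNA, against 0.03 over all genes, and -0.02 with SFRP2 siRNA, against -0.01 over all genes. The groups did not overlap for 4 of the 8 core genes tested with SFRP2 siRNA (24.7% of all genes), of which 1 was higher (10.9%) and 3 were lower (13.9%), and for all 9 tested with RAB6A siRNA (77.4%), of which 4 were higher (39.2%) and 5 lower (38.2%). Both comparisons share the NC libraries.

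**Figure D2:**
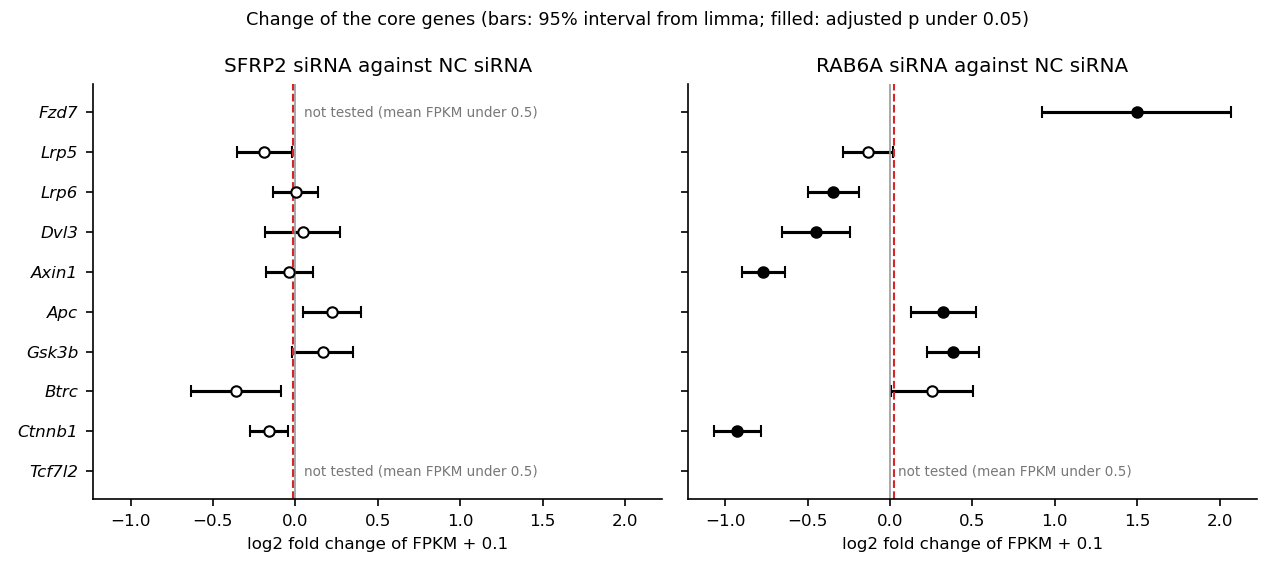
Log2 fold change of FPKM + 0.1 (x axis) of each core gene (y axis) against NC, with 95% intervals from limma, for SFRP2 siRNA on the left and RAB6A siRNA on the right. Filled points passed an adjusted p of 0.05 (7 on the right and 0 on the left), and the dashed line marks the median of all genes tested.

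Few Wnt ligands were expressed. Of 19 Wnt genes, 13 were in the table and 12 of these stayed below an FPKM of 0.5 in every library. Wnt6 had the highest NC level at 0.149 ± 0.0260 (n = 3) and was at 0.429 ± 0.118 (n = 3) in RAB6A siRNA libraries. Wnt5a, a ligand mostly tied to non-canonical signaling, was counted in 8 to 22 reads per library. The summed FPKM of the ligands was 0.428 to 0.654 in NC, 0.511 to 0.785 in SFRP2 siRNA and 0.739 to 1.08 in RAB6A siRNA libraries. The RAB6A siRNA sums thus all lay above the NC sums, but single ligands differed in direction. Without overlap with NC, Wnt6 and Wnt10b (mean 0.0393 in NC and 0.148) were higher with RAB6A siRNA. Wnt2b (0.139 and 0.0283) and Wnt4 (0.0542 and 0.0126) were lower without overlap. Of all genes tested, 39.2% were higher and 38.2% lower without overlap. These ligands were counted in at most 45 reads per library. No ligand had a mean level that allowed a test. Of 20 genes of Wnt secretion and extracellular modulators, 2 were tested with RAB6A siRNA. Porcn, which encodes the acyltransferase that lipidates Wnt proteins, rose from 0.273 ± 0.0440 to 1.27 ± 0.353 FPKM (log2 fold change 1.84, SE 0.27, adjusted p = 4.9e-04) and passed the filter on low values through the RAB6A siRNA libraries alone. Wls, the carrier of Wnt proteins to the cell surface, had 6.17 ± 0.335 in NC and 6.22 ± 0.379 in RAB6A siRNA libraries (adjusted p = 0.887), and it passed after correction for GC content and length.

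Fzd7 encodes a Frizzled receptor and lies at chr1:59482424-59486955 of GRCm38 (ENSMUSG00000041075). FPKM was 0.398, 0.388 and 0.529 in NC libraries, 0.495, 0.426 and 0.406 with SFRP2 siRNA and 1.65, 1.00 and 1.68 with RAB6A siRNA. With RAB6A siRNA every library was higher than the other 6, and replicate 2 lay clearly below the others of its group, while the NC and SFRP2 siRNA libraries overlapped. These levels rest on 64 to 102 reads per library in NC and SFRP2 siRNA libraries and on 172 to 272 in RAB6A siRNA libraries. The log2 fold change with RAB6A siRNA was 1.50 (SE 0.24, adjusted p = 9.0e-04), and 16.3% of all genes changed more in either direction. With a log2 fold change over 1, Fzd7 was the 1 core gene to qualify as a DEG (adjusted p under 0.05 and absolute log2 fold change over 1), a class that held 30.1% of all genes tested. Fzd7 passed the filter of a mean FPKM of 0.5 through the RAB6A siRNA libraries alone, so its passing and its rise are not independent. With a pseudocount of 1 in place of 0.1 the log2 fold change was 0.75, and with no filter the adjusted p was 0.0033. In the SFRP2 siRNA comparison Fzd7 was tested only without the filter (log2 fold change 0.02, 95% interval -0.54 to 0.57).

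The 250 bases upstream of the RefSeq start of Fzd7 (chr1:59481897-59482146, + strand, GRCm38.p6) are shown because Fzd7 rose most among the core genes, together with the 250 bases upstream of 1 RefSeq start of Ctnnb1 (chr9:120933150-120933399, + strand), the beta-catenin gene, which fell. Capitals mark CG dinucleotides.
Fzd7: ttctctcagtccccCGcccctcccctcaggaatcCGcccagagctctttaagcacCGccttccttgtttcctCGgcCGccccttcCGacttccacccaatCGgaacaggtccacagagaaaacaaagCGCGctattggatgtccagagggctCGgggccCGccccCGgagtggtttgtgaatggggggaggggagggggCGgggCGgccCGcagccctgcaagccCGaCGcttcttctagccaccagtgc
Ctnnb1: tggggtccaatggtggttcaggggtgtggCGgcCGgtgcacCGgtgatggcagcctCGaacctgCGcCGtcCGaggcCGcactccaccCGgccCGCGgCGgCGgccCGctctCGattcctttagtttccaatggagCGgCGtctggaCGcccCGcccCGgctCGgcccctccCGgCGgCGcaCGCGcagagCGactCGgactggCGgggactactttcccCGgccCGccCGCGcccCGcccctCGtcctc
The Fzd7 window holds 17 CG dinucleotides at 65.2% GC and the Ctnnb1 window 35 at 74.8% GC, where the medians of 32851 RefSeq windows of the same length are 6 and 52.4%. The TCF/LEF motifs CTTTGAT and CTTTGAA, searched on both strands, were in 0 of 7 windows of the 5 core genes with an entry (Ctnnb1, Fzd7, Gsk3b, Dvl3 and Tcf7l2) and in 7.48% of all windows, and the window of the target gene Axin2 also held none. No entry was found for Axin1, Apc, Btrc, Lrp5 and Lrp6.

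Among the 10 Frizzled genes, Fzd5 and not Fzd7 supplied most of the RNA. The summed FPKM of the family was 3.22 ± 0.431 in NC, 3.29 ± 0.235 with SFRP2 siRNA and 8.52 ± 0.471 with RAB6A siRNA (n = 3 each). Fzd5 rose from 2.32 ± 0.453 to 6.59 ± 0.295 with RAB6A siRNA (log2 fold change 1.48, SE 0.13, adjusted p = 3.6e-05). The share of Fzd7 was 13.9 ± 3.68% in NC and 16.8 ± 3.92% with RAB6A siRNA, with overlapping libraries (exact two-sided permutation test, p = 0.3). Fzd5 kept the larger share in every group, with 71.6 ± 4.53% in NC and 77.3 ± 0.807% with RAB6A siRNA. Of the 23 receptors and co-receptors, 7 were tested with RAB6A siRNA, of which 3 rose (37.6% of all genes) and 2 fell (36.5%), or 4 and 1 after correction for GC content and length (41.4% and 33.7%). Kremen1, a receptor for DKK inhibitors, rose from 0.629 ± 0.0479 to 1.67 ± 0.0630 (log2 fold change 1.28), and Znrf3, a ubiquitin ligase that removes Frizzled receptors from the membrane, fell by 0.65 (SE 0.13, adjusted p = 0.0024). Ryk, a Wnt co-receptor of the non-canonical branch, had the highest NC level of the list at 15.1 ± 1.04 FPKM and 13.9 ± 0.914 with RAB6A siRNA (adjusted p = 0.212).

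Lrp5 and Lrp6 encode the co-receptors and lie at chr19:3584828-3686564 and chr6:134446476-134566965. Lrp5 FPKM was 10.4, 10.1 and 11.4 in NC, 9.34, 8.69 and 9.87 with SFRP2 siRNA and 9.55, 9.71 and 9.66 with RAB6A siRNA. Both siRNA groups lay below the NC libraries without overlap, but neither difference passed the adjusted test (log2 fold change -0.19, adjusted p = 0.239, for SFRP2 siRNA and -0.13, adjusted p = 0.0964, for RAB6A siRNA). For Lrp6, FPKM was 6.55, 6.19 and 6.55 in NC, 6.35, 6.26 and 6.71 with SFRP2 siRNA and 5.28, 4.97 and 4.89 with RAB6A siRNA. All RAB6A siRNA libraries were lower than the rest, and the other 2 groups overlapped. Lrp6 fell by 0.34 (SE 0.07, adjusted p = 0.0021) with RAB6A siRNA. This call was lost once GC content and gene length had been corrected for (log2 fold change -0.12, adjusted p = 0.151). The share of Lrp5 in the summed FPKM of both genes was 62.2 ± 1.10% in NC, 59.1 ± 0.795% with SFRP2 siRNA and 65.6 ± 1.08% with RAB6A siRNA, and no group overlapped with another (exact p = 0.1 for each pair, the smallest p for 3 libraries against 3).

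Dvl3, a Dishevelled gene at chr16:20516982-20534010, had FPKM of 7.14, 7.31 and 7.24 in NC, 7.21, 6.66 and 8.66 with SFRP2 siRNA and 5.16, 4.76 and 5.94 with RAB6A siRNA. The SFRP2 siRNA libraries spread around the NC libraries, and the RAB6A siRNA libraries were all lower. Dvl3 fell by 0.45 (SE 0.09, adjusted p = 0.0024) with RAB6A siRNA, whereas with SFRP2 siRNA its log2 fold change was 0.05 (95% interval -0.18 to 0.27). Its paralog Dvl1 rose with RAB6A siRNA, from 6.74 ± 0.475 to 13.0 ± 1.74 FPKM (log2 fold change 0.94, SE 0.11, adjusted p = 1.4e-04), and Dvl2 had 3.59 ± 0.266 and 3.46 ± 0.263 (adjusted p = 0.640). The share of Dvl3 in the Dishevelled sum was 41.2 ± 1.16% in NC and 24.4 ± 4.17% with RAB6A siRNA, and that of Dvl1 was 38.4 ± 2.10% and 59.7 ± 4.50%. In NC the shares of the 2 genes overlapped (40.3 to 42.5% for Dvl3 and 36.5 to 40.6% for Dvl1). With RAB6A siRNA they did not (21.9 to 29.2% for Dvl3 and 54.5 to 62.8% for Dvl1). The sum of the family went from 17.6 ± 0.312 to 21.8 ± 1.50 FPKM. With SFRP2 siRNA the share of Dvl3 was 45.5 ± 4.60%, which overlapped with NC (exact p = 0.2), and that of Dvl1 was 33.9 ± 3.12%, below all NC libraries (exact p = 0.1).

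**Figure D3:**
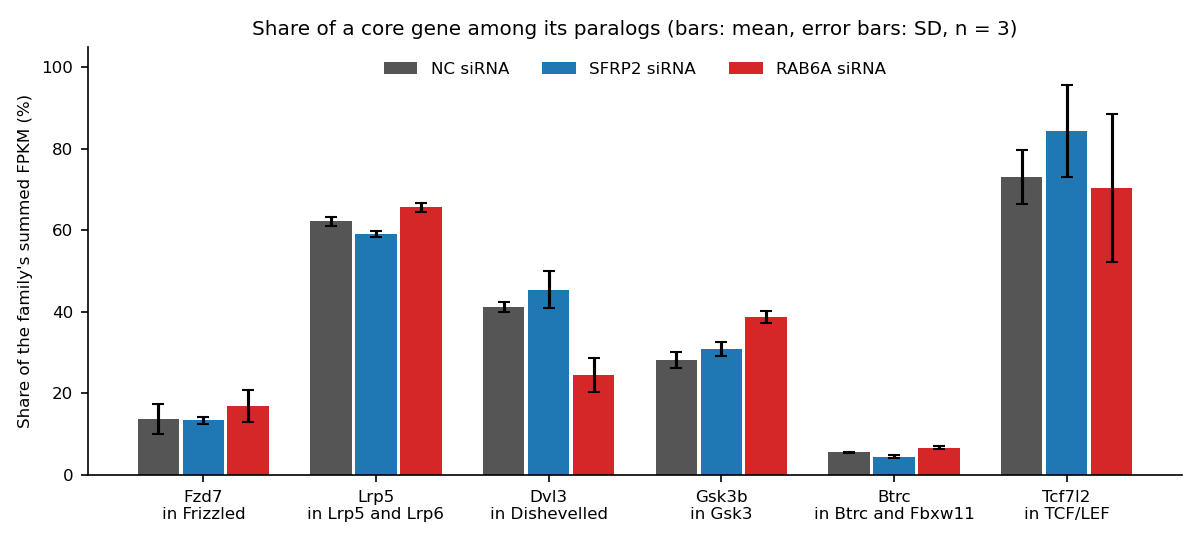
Share of a core gene in the summed FPKM of its paralogs (y axis, percent) for 6 gene families (x axis), with bars for the mean and error bars for the SD of 3 libraries per siRNA group. With RAB6A siRNA the share of Dvl3 was 24.4% against 41.2% in NC, and the share of Gsk3b was 38.7% against 28.2%.

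Axin1 encodes the scaffold of the destruction complex and lies at chr17:26138688-26195811. FPKM was 15.0, 14.2 and 14.8 in NC, 14.7, 15.0 and 13.3 with SFRP2 siRNA and 8.57, 8.41 and 8.80 with RAB6A siRNA. With RAB6A siRNA the libraries were tightly grouped and far below the others, and the NC and SFRP2 siRNA libraries overlapped. Axin1 fell by 0.77 (SE 0.06, adjusted p = 1.4e-05) with RAB6A siRNA, to 0.584 of the NC level. Its log2 fold change with SFRP2 siRNA was -0.04 (95% interval -0.18 to 0.11), which turned to 0.07 after correction for GC content and length. Axin2, the paralog that beta-catenin itself induces, supplied under 1% of the AXIN sum, with Axin1 at 99.8 ± 0.0576% in NC and 99.7 ± 0.0581% with RAB6A siRNA.

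Apc encodes the large scaffold that binds beta-catenin and lies on chromosome 18 from 34220924 to 34322552. FPKM was 6.23, 5.74 and 5.21 in NC, 6.70, 6.69 and 6.67 with SFRP2 siRNA and 7.43, 6.77 and 7.34 with RAB6A siRNA. Both siRNA groups lay above every NC library, and the SFRP2 siRNA libraries were nearly equal to each other. Apc rose with RAB6A siRNA (log2 fold change 0.32, SE 0.08, adjusted p = 0.0092). With SFRP2 siRNA the log2 fold change was 0.22 (95% interval 0.05 to 0.40), with an adjusted p of 0.206. Apc2 was counted in 5 to 22 reads per library.

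Gsk3b encodes a kinase that phosphorylates beta-catenin and lies at chr16:38089001-38246084. FPKM was 7.11, 6.93 and 6.33 in NC, 7.73, 8.20 and 6.96 with SFRP2 siRNA and 8.93, 8.66 and 9.03 with RAB6A siRNA. The RAB6A siRNA libraries were higher than all others, and those of SFRP2 siRNA overlapped with NC. Gsk3b rose with RAB6A siRNA (log2 fold change 0.38, SE 0.07, adjusted p = 0.0013), while Gsk3a, the paralog with the higher level, fell from 17.3 ± 0.548 to 14.1 ± 0.873 FPKM (log2 fold change -0.30, adjusted p = 0.0040). The share of Gsk3b in the sum of both was 28.2 ± 1.85% in NC, 31.0 ± 1.71% with SFRP2 siRNA and 38.7 ± 1.45% with RAB6A siRNA, and their sum was 24.1 ± 0.179, 24.6 ± 0.673 and 22.9 ± 0.926 FPKM. The shares with RAB6A siRNA lay above those of both other groups (exact p = 0.1 each).

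Btrc encodes the beta-TrCP subunit that recognises phosphorylated beta-catenin and lies at chr19:45363734-45530013. FPKM was 1.36, 1.31 and 1.41 in NC, 1.01, 1.09 and 1.02 with SFRP2 siRNA and 1.58, 1.71 and 1.65 with RAB6A siRNA. The 3 groups did not overlap, with SFRP2 siRNA lowest and RAB6A siRNA highest. Against NC, the log2 fold change was -0.36 (SE 0.12, adjusted p = 0.202) with SFRP2 siRNA and 0.26 (SE 0.11, adjusted p = 0.0602) with RAB6A siRNA, so neither passed. The 2 siRNA groups differed from each other by a log2 fold change of -0.62 (SFRP2 siRNA against RAB6A siRNA, adjusted p = 0.0023). With RAB6A siRNA against NC, Btrc passed in 4 of 18 alternative settings, among them the GC content and length correction (log2 fold change 0.33, adjusted p = 0.0317). Quantile normalization turned the value to -0.02. Gm6807, on the opposite strand, shares 1.39% of the exon bases of Btrc. Its mean FPKM was 0.716 in NC, 1.04 with SFRP2 siRNA and 3.88 with RAB6A siRNA. The part of this overlap in the Btrc values was not tested. Btrc made up 5.53 ± 0.115% of the summed FPKM of Btrc and Fbxw11 in NC, 4.49 ± 0.322% with SFRP2 siRNA and 6.73 ± 0.426% with RAB6A siRNA, the rest being Fbxw11.

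Of the 30 genes of the Dishevelled and destruction complex list, 24 were tested. With RAB6A siRNA, 8 rose (37.6% of all genes), 6 fell (36.5%) and 10 did not pass, and the median log2 fold change was 0.07 against 0.03 over all genes. After correction for GC content and length, 15 of 24 rose (41.4% of all genes) and 4 fell (33.7%). Cul1, the scaffold of the ubiquitin ligase that contains beta-TrCP, fell most, from 18.4 ± 1.29 to 6.18 ± 0.167 FPKM (log2 fold change -1.55, SE 0.07, adjusted p = 2.3e-06). Csnk1g1, a casein kinase 1 gene, rose from 4.61 ± 0.215 to 7.20 ± 0.806 (log2 fold change 0.63, SE 0.10, adjusted p = 6.1e-04). Ppp2r1a, the scaffold of protein phosphatase 2A, had the highest NC level at 60.4 ± 2.66 and rose to 75.9 ± 2.04 (log2 fold change 0.33, adjusted p = 0.0011). With SFRP2 siRNA, limma and voom called 0 of 24, and 6 had an unadjusted p under 0.05 (18.5% of all genes).

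Ctnnb1 (ENSMUSG00000006932, chr9:120929216-120960507) encodes beta-catenin. FPKM was 49.8, 47.1 and 49.2 in NC, 42.0, 43.0 and 45.8 with SFRP2 siRNA and 26.1, 26.8 and 23.9 with RAB6A siRNA. The RAB6A siRNA libraries stood at about the same level and far below the others, the SFRP2 siRNA libraries lay between, and no group overlapped with another. With RAB6A siRNA Ctnnb1 fell by 0.93 (SE 0.06, 95% interval -1.07 to -0.78, adjusted p = 9.6e-06), to 0.526 of the NC level. Of all genes tested, 34.5% changed more in either direction. With SFRP2 siRNA Ctnnb1 had a log2 fold change of -0.16 (SE 0.05, 95% interval -0.28 to -0.04) at an unadjusted p of 0.0146 and an adjusted p of 0.198. These levels rest on at least 4065 reads per library. After correction for GC content and length, the log2 fold change with RAB6A siRNA was -0.62 (adjusted p = 6.3e-05), and that of Axin1 was -0.66, so that the core gene with the largest fall was Ctnnb1 without the correction and Axin1 with it. Of the exon bases of Ctnnb1, 15.1% are shared with other genes, mainly with Ulk4 on the opposite strand, and the use of strand in counting is not given in the sources used here. Ulk4 was at 0.0539 to 0.191 FPKM in all libraries. In bulk RNA, fewer cells of a type and less RNA per cell cannot be told apart.

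The expression profiles most like that of Ctnnb1 over the 9 libraries, by the root mean square difference of centred log2 values among 10962 genes, were those of Rnf220 (0.042), Tor3a (0.048) and Pianp (0.049). Rnf220 had a mean FPKM of 10.3 in NC, 8.89 with SFRP2 siRNA and 5.32 with RAB6A siRNA. Fzd7 and Tcf7l2 had a mean FPKM below 1 over the 9 libraries and were not among the genes compared. Of the other core genes, Axin1 was closest to Ctnnb1 at 0.114, with 2.44% of genes closer, followed by Dvl3 (0.238) and Lrp6 (0.248), and Btrc was at 0.614. The libraries and their depth are shared by all these genes, and these values are a description.

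Tcf7l2 encodes a TCF/LEF factor and lies at chr19:55741820-55933654. FPKM was 0.332, 0.396 and 0.346 in NC, 0.394, 0.359 and 0.398 with SFRP2 siRNA and 0.643, 0.410 and 0.601 with RAB6A siRNA. The RAB6A siRNA libraries were all higher than the rest, but 1 of them exceeded the highest NC library only slightly. Its mean was below 0.5 FPKM in each comparison, and without that filter the log2 fold change with RAB6A siRNA was 0.49 (SE 0.25, adjusted p = 0.176) and that with SFRP2 siRNA 0.08 (SE 0.22, adjusted p = 0.905). On average Tcf7l2 supplied most of the TCF/LEF sum in each group, with 73.1 ± 6.69% in NC, 84.3 ± 11.3% with SFRP2 siRNA and 70.3 ± 18.2% with RAB6A siRNA. Its share was 49.4% in the lowest RAB6A siRNA library. For Tcf7l2 and its paralog Tcf7, FPKM did not give whole reads with the exon lengths used, so these shares are less certain. The sum itself was low, at 0.493 ± 0.0707, 0.462 ± 0.0817 and 0.790 ± 0.0371 FPKM. Lef1 was counted in 0 to 8 reads per library.

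Of 20 genes of beta-catenin and its nuclear partners, 14 were tested. With RAB6A siRNA, 8 fell (36.5% of all genes), 2 rose (37.6%) and 4 did not pass, and the median log2 fold change was -0.24 against 0.03 over all genes. After correction for GC content and length, 5 fell (33.7% of all genes) and 2 rose (41.4%). Among those that fell were the coactivator Ep300, from 18.7 ± 1.09 to 9.58 ± 0.852 FPKM (log2 fold change -0.96, SE 0.08, adjusted p = 2.9e-05), and the corepressor Ctbp1, from 16.4 ± 0.702 to 6.71 ± 0.311 (log2 fold change -1.28, SE 0.06, adjusted p = 3.3e-06). The lower genes thus held both an activator and a repressor of transcription. Of the 2 genes that rose, Aes, a short Groucho family protein, went from 28.1 ± 1.95 to 82.0 ± 7.44 FPKM (log2 fold change 1.54, SE 0.08, adjusted p = 4.6e-06). Ctnnbip1, an inhibitor that binds beta-catenin, went from 0.980 ± 0.172 to 1.61 ± 0.155 (log2 fold change 0.67, SE 0.16, adjusted p = 0.0059). With SFRP2 siRNA, limma and voom called 0 of 14, and 3 had an unadjusted p under 0.05 (18.5% of all genes), with Aes at 22.8 FPKM.

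Several genes known as Wnt targets were hardly expressed. Axin2 was counted in 2 to 8 reads per library, Lgr5 in 0 to 22 and Nkd1 in 0 to 8, and no difference of these genes could be read at this depth. Of 24 targets, 23 were in the table and 10 were tested with RAB6A siRNA, of which 3 rose (37.6% of all genes), 3 fell (36.5%) and 4 did not pass. Myc, a growth regulator, fell from 92.1 ± 1.08 to 6.08 ± 0.286 FPKM (log2 fold change -3.90, SE 0.06, adjusted p = 1.5e-07). Ccnd1, which encodes cyclin D1 and had the highest NC level of the list, fell from 102.8 ± 1.92 to 57.5 ± 2.21 (log2 fold change -0.84, SE 0.05, adjusted p = 8.1e-06). In the other direction, Jun, a subunit of AP-1, rose from 25.2 ± 1.30 to 56.1 ± 2.63 (log2 fold change 1.16, adjusted p = 4.4e-06), and the protease gene Mmp7 rose from 0.441 ± 0.207 to 1.98 ± 1.17 (log2 fold change 1.83, SE 0.47, adjusted p = 0.0093). Mmp7 passed the filter on low values through the RAB6A siRNA libraries alone, so its passing and its rise are not independent. After correction for GC content and length, 5 targets rose (41.4% of all genes) and 3 fell (33.7%). With SFRP2 siRNA, limma and voom called 0 of 9, and 0 of 9 had an unadjusted p under 0.05 (18.5% of all genes).

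**Figure D4:**
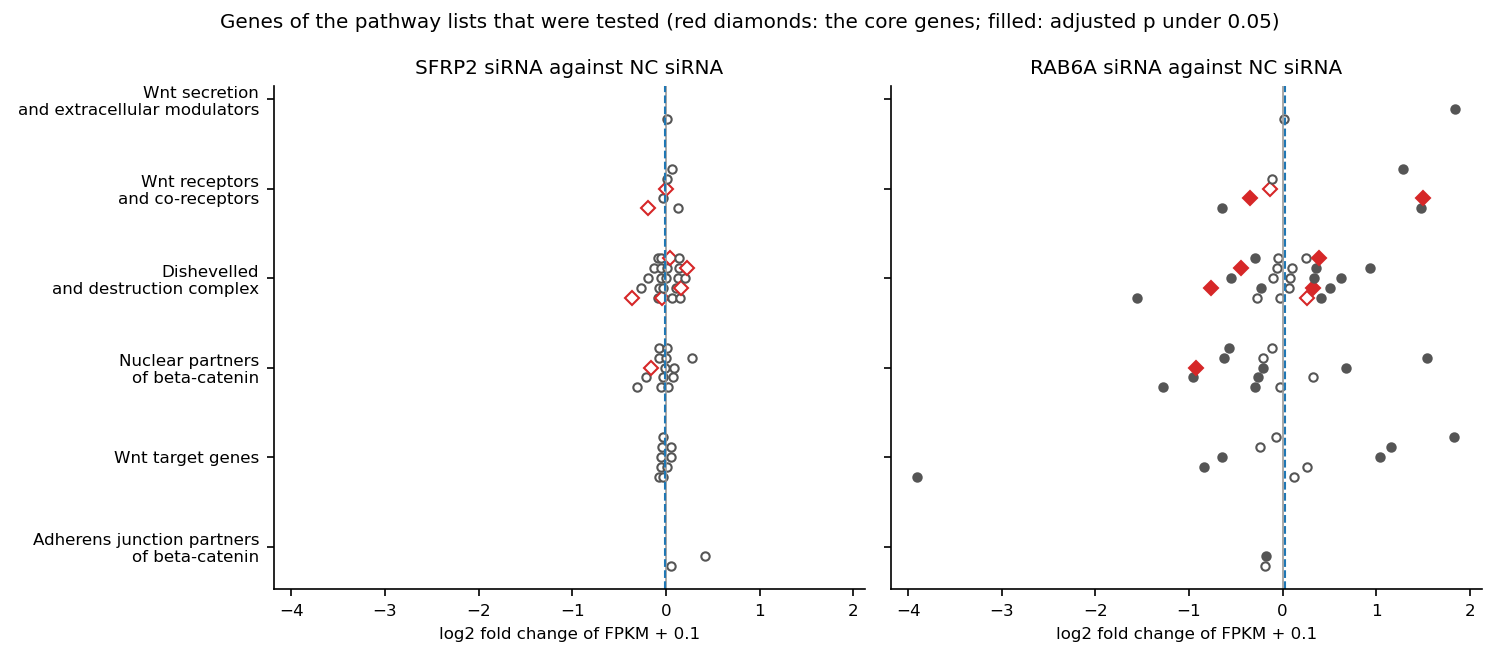
Log2 fold change of FPKM + 0.1 (x axis) of the tested genes of 6 pathway lists (y axis) against NC, for SFRP2 siRNA on the left and RAB6A siRNA on the right. Diamonds are core genes and circles other genes, filled where the adjusted p was under 0.05, and the lowest point on the right is Myc at -3.90.

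The difference between the effects of the siRNAs was tested by comparing their libraries directly. Of 9 core genes tested, 7 differed, against 73.4% of all 12764 genes, with 4 higher (35.8%) and 3 lower (37.6%) with SFRP2 siRNA. Ctnnb1 (log2 fold change 0.77, adjusted p = 4.2e-05), Axin1 (0.73, adjusted p = 5.8e-05), Dvl3 (0.49, adjusted p = 0.0082) and Lrp6 (0.35, adjusted p = 0.0025) were higher with SFRP2 siRNA than with RAB6A siRNA. Fzd7 (-1.48, adjusted p = 0.0010), Btrc and Gsk3b (-0.22, adjusted p = 0.0331) were lower with SFRP2 siRNA. Apc (-0.10, adjusted p = 0.187) and Lrp5 (-0.05, adjusted p = 0.485) did not pass. Fzd7 met the filter on low values through the RAB6A siRNA libraries alone here too, so its being tested and its difference are not independent. With no filter its adjusted p was 0.0032. With a filter at a mean FPKM of 1, which Fzd7 did not meet, 6 of 8 core genes and 8428 of 11107 genes in all differed. The call of Gsk3b was lost with the replicate number as a block (adjusted p = 0.0616) and when SFRP2 siRNA replicate 1 or 3 or any 1 of the RAB6A siRNA replicates was left out (adjusted p 0.0581 to 0.0873). Correction for GC content and length removed the call of Lrp6 (adjusted p = 0.519) and added Apc (log2 fold change -0.40, adjusted p = 6.3e-04).

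In the SFRP2 siRNA comparison, fold changes moved with base composition. Over 11903 genes, Spearman's rho between the log2 fold change and the GC content of the longest transcript was -0.48, and with RAB6A siRNA it was 0.08 over 12535 genes. With exon length it was 0.17 for SFRP2 siRNA and -0.21 for RAB6A siRNA, where it was the larger of both relations. The core genes span 40.6% GC (Btrc) to 56.6% (Axin1). Of the 8 core genes tested, Apc (44.3% GC) and Gsk3b (46.1%) were on the higher side with SFRP2 siRNA, and Ctnnb1 (50.3%) and Lrp5 (54.7%) on the lower side. The others did not follow that order, since Btrc was lower at the smallest GC content, Lrp6 (46.0%) had a log2 fold change of 0.00, and Dvl3 (55.2%) and Axin1 had 0.05 and -0.04 at the highest GC contents. After correction, the log2 fold changes with SFRP2 siRNA were 0.13 for Apc, 0.11 for Gsk3b, -0.13 for Ctnnb1, -0.12 for Lrp5, -0.52 for Btrc, 0.13 for Dvl3, 0.07 for Axin1 and -0.07 for Lrp6, so that the first 4 were closer to 0 and the other 4 farther from it. With RAB6A siRNA, the corrected values were 0.52 for Apc and 0.65 for Gsk3b, over 1.5 times those without correction. The part of base composition and length in the differences was not tested further.

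**Figure D5:**
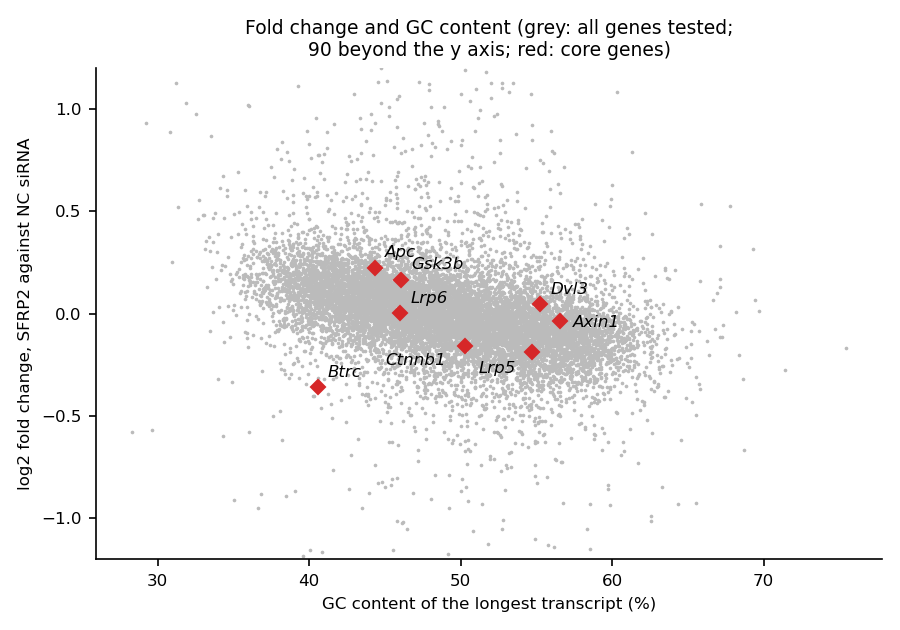
Log2 fold change of SFRP2 siRNA against NC (y axis) by GC content of the longest transcript in percent (x axis), with 1 grey point per gene tested and diamonds for the 8 core genes tested. The cloud falls from left to right (rho -0.48), and Btrc at 40.6% GC and -0.36 lies below it.

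Some macrophage markers also differed between the groups. With RAB6A siRNA, 4 of 9 fell (36.5% of all genes) and 1 rose (37.6%), and after correction for GC content and length 5 fell (33.7%) and 3 rose (41.4%). Among those that fell were Lyz2 (lysozyme), from 872 ± 24.0 to 214 ± 23.0 FPKM, and Csf1r (the receptor of macrophage colony-stimulating factor), from 73.6 ± 8.48 to 27.0 ± 1.19. Ptprc (CD45) rose from 18.3 ± 0.367 to 20.6 ± 0.969. With SFRP2 siRNA, limma called 0 of 9 (voom 0, and 4 at an unadjusted p under 0.05, against 18.5% of all genes), and 5 were lower than in NC without overlap, where 13.9% of all genes were. All SFRP2 siRNA and RAB6A siRNA libraries had fewer reads than the lowest NC library. Their part in the changes of the core genes was not tested.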

How the data were processed

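RNA-seq of 9 RAW264.7 libraries was re-analysed, 3 each of NC, SFRP2 and RAB6A siRNA, grouped by the labels. The authors deposited FPKM per gene. The submitters' processing notes name HISAT2, Subread and featureCounts, and the genome build and annotation are not given in the sources used here. FPKM values are not counts, so limma 3.58.1 in R 4.3.3 (lmFit, eBayes with trend) was run on log2(FPKM + 0.1) wherever the 6 libraries compared averaged 0.5 FPKM or more, with Benjamini-Hochberg adjustment over all genes tested. Fold changes on this scale understate those of low genes. Single genes and shares were compared by an exact two-sided permutation test of 3 libraries against 3.

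Identifiers were matched to GENCODE M21 (27533 of 28137). FPKM multiplied by exon length gave whole reads within 0.03 of a read in all 9 libraries for 98.4% of the matched genes, but not for Tcf7l2. These reads served for depth and for voom as an alternative, and the count model of the study's methods was not run on them. GC content and length were corrected by splines with 5 degrees of freedom. No library duplicated another, and the median SD between replicates was 0.124 on the log2 scale over 12549 genes. The scripts were checked on simulated data. Promoter windows came from RefSeq (GRCm38.p6). Python 3.11.15 with pandas 2.3.3 and scipy 1.17.1 was used elsewhere.

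The core genes and gene lists were chosen with earlier results of these data known. The text names all core genes, both siRNA targets, the gene of highest NC level in each list and, per list, the 2 highest and 2 lowest called fold changes without overlap, and the 3 profiles most like that of Ctnnb1. Paralogs of the core genes were named with their shares. Genes counted in few reads, Kremen1, Krt14 and the genes overlapping Ctnnb1 and Btrc were named after their values were seen. Alternatives were pseudocounts of 1 and 0.01, no filter and a filter at a mean FPKM of 1, median-of-ratios and quantile scaling, eBayes without trend, a block for the replicate number, 1 fit of all 9 libraries, the GC content and length correction with and without the block, voom, and each library left out.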

Additional observations from a re-analysis of the deposited data

How the results depend on the processing

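All 7 calls of core genes with RAB6A siRNA against NC held under each alternative in which the gene was tested, except that of Lrp6, lost with the GC content and length correction (adjusted p = 0.151, and 0.199 with the block), and no core gene was called with SFRP2 siRNA against NC under any of them. Genes called with SFRP2 siRNA against NC numbered 42 with voom (7 higher and 35 lower, 2 of them DEGs) against 0 in limma, and 0 to 1 with single libraries left out (0 to 1 DEGs), the 1 arising without NC siRNA replicate 1. DEGs fell from 3829 to 2389 with RAB6A siRNA against NC, and from 3972 to 2501 between the siRNA groups, with a pseudocount of 1. Signs changed only among values that had not passed. With SFRP2 siRNA against NC, the log2 fold change of Axin1 was 0.0740 with the GC content and length correction, also with the block, and -0.0721 to 0.0159 with single libraries left out, the highest without SFRP2 siRNA replicate 3. That of Lrp6 was -0.0674 with this correction, also with the block, -0.00263 with voom, and -0.0283 to 0.0211 with single libraries left out, below 0 without NC siRNA replicate 2 (-0.0257) and without SFRP2 siRNA replicate 3. That of Dvl3 was -0.0608 to 0.126, the lowest without SFRP2 siRNA replicate 3. With RAB6A siRNA against NC, Btrc was -0.0196 with quantile normalization, but passed with eBayes without trend (adjusted p = 0.0113), all 9 libraries in 1 fit (0.0418), the GC content and length correction (0.0317) and voom (0.0055). The call of Gsk3b between the siRNA groups was also lost with no filter on low values (adjusted p = 0.0512). The causes were not tested.

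With the replicate number as a block, limma called 0 genes with SFRP2 siRNA against NC (2988 at an unadjusted p under 0.05, against 2220 without it), 9103 with RAB6A siRNA against NC (9418 without) and 9159 between the siRNA groups (9369 without). Deviations of same-numbered libraries from their group means had a mean correlation of 0.0048, -0.018 and -0.017 in the 3 comparisons. Each mean rests on 3 pairs of libraries and cannot decide whether same-numbered libraries were handled together. Depth limits Fzd7, Tcf7l2, the ligands and Axin2 most.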

Other observations

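Beta-catenin also holds cadherins to alpha-catenin at adherens junctions. Of 8 genes of this complex, 7 were in the table and 2 passed the filter on low values. Ctnna1, which encodes alpha-catenin and had the highest NC level, fell from 15.2 ± 0.926 to 13.3 ± 0.413 FPKM with RAB6A siRNA (log2 fold change -0.18, SE 0.06, limma, adjusted p = 0.0344), where 36.5% of all genes fell. This call was lost with the GC content and length correction, under which 0 of 2 genes were called (41.4% of all genes rose and 33.7% fell). Ctnnd1, which encodes p120-catenin, had 3.02 ± 0.279 FPKM in NC, 4.07 ± 0.137 with SFRP2 siRNA (log2 fold change 0.42, adjusted p = 0.165) and 2.64 ± 0.157 with RAB6A siRNA (adjusted p = 0.120). SFRP2 siRNA against RAB6A siRNA, Ctnnd1 was higher (log2 fold change 0.61, adjusted p = 3.7e-04). Jup, the closest paralog of Ctnnb1, was counted in 12 to 95 reads per library. Of the markers of other cell types, Pecam1, known from endothelium and also found on leukocytes, rose from 0.475 ± 0.0182 to 0.830 ± 0.0634 FPKM with RAB6A siRNA (log2 fold change 0.69, SE 0.19, adjusted p = 0.0124), and it passed the filter on low values through these libraries alone.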
